A study of Homo sapiens with 3 samples.

Results

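Keratins and the other intermediate filament genes were examined in undifferentiated human embryonic stem (ES) cells. They were chosen by name only: every probe whose gene symbol is KRT plus a number, and the probes of VIM, DES, NES, GFAP, INA, PRPH, NEFL, NEFM, NEFH, SYNM, LMNA, LMNB1 and LMNB2. This gave 65 probes for 61 genes, of 16225 named genes in all: 48 keratins (27 of type I and 21 of type II) and 13 other filament genes. KRT6A, KRT6B, KRT17, KRT39, KRT81, KRT82 and KRT86 have no probe of that name and are not analysed here. The 3 ES cell lines H9, BG03 and ES01 form 1 group and were each measured on 1 Illumina bead array. All were grown on irradiated mouse embryonic fibroblasts (MEFs) with 20% serum replacement and FGF2, and total RNA was labelled with Cy3. The study's question was how human ES cells relate to ES cells and epiblast stem cells of the mouse, and its mouse arrays are not analysed here.

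Intermediate filaments are rope-like polymers of the cytoskeleton and of the nuclear envelope. Keratins build them only as pairs of an acidic type I and a basic type II chain, and each epithelium has its own pairs: KRT8 with KRT18 or KRT19 in simple epithelia, KRT5 with KRT14 and KRT1 with KRT10 in the epidermis, and the hair keratins in the hair shaft. Vimentin (VIM), desmin, GFAP and peripherin are the type III chains, the neurofilaments, internexin, nestin and synemin the type IV chains, and the lamins, of type V, line the nucleus. Human ES cells grow as an epithelial sheet and are known to carry simple epithelial keratins together with vimentin.

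Intensities are in arbitrary units after quantile normalization and are given in the order H9, BG03, ES01; each SD is that of the log2 values of the 3 lines (SD, n = 3). A gene counted as above background where its brightest probe passed the 95th percentile of 215 olfactory receptor probes on that array, which was 11.2, 12.6 and 13.3 units. Probes differ in how brightly they read a transcript, so levels are compared between lines and never between genes. Whether each probe reads its transcript was not checked, and a gene not above background is not shown to be absent. Each array carried between 2088813 and 2102612 beads. For bead types above 200 in the bead intensities, which were not normalized, the error of the log2 mean had a median of 0.04 on each array. That cut is not on the scale of the gene values, and the error of dimmer bead types is not given. The lines are separate cultures with 1 array each, so their spread holds line, culture and array differences together, and no test between lines exists. In bulk RNA, fewer cells of a type and less RNA per cell cannot be told apart. Of the ES cell markers, POU5F1, NANOG, LIN28A, DNMT3B, GDF3 and DPPA4 were above background in all 3 lines, while SOX2, read by a probe at 3.87, 5.03 and 3.90 units, was not above it in any.

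The filament genes fell into a small set read in every line and a large set near 0. Of 61 genes, 14 (23.0%) passed the threshold in each of the 3 lines, against 59.8% of all genes. Another 5 passed in only part of the lines, against 8.07%, and 42 passed nowhere, against 32.2%. The split followed the families. Only 4 of 48 keratins (8.3%) were above background in all lines, namely KRT8, KRT18, KRT19 and KRT10. Outside the keratins, 10 of 13 genes (76.9%) were: VIM, PRPH, INA, NEFM, NEFH, NES, SYNM and the 3 lamin genes. The 14 genes above background in all lines were also 14 with the 99th percentile as threshold, where no further member passed in any line.

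**Figure D1:**
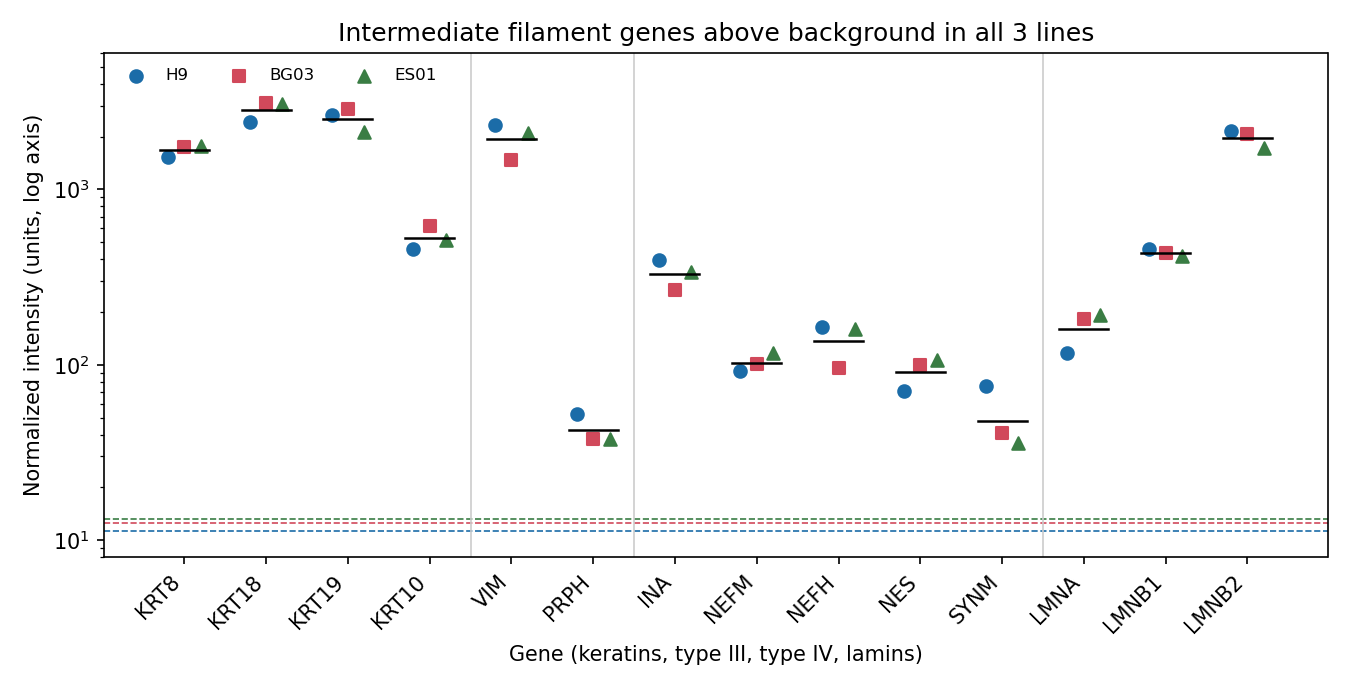
Normalized intensity (units, log axis) of the 14 filament genes above background in all lines; each marker is 1 line (1 array), the black bar is the mean of the 3 log2 values, and the dashed lines are the background thresholds of the arrays. The lines lie close together for KRT8 and LMNB1 and farthest apart for SYNM, where H9 sits above BG03 and ES01; heights of different genes are readings of different probes and are not comparable.

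The annotated promoters of these genes are shown because the genes read in every line carry different kinds of promoter. The last 120 bases before the annotated start follow, from RefSeq (GRCh38.p14), 5′ to 3′ on the gene's own strand. Capitals mark TATAAA lying between 40 and 20 bases before the start, the GC box GGGCGG or its reverse complement CCGCCC, and CCAAT or its reverse complement ATTGG. The first 6 genes were above background in all lines, and the last 2, an epidermal and a hair follicle keratin, in none.
KRT10, chr17:40822615-40822734, minus strand: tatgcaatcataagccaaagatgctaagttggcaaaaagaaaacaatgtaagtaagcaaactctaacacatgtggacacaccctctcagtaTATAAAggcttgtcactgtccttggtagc
PRPH, chr12:49295027-49295146, plus strand: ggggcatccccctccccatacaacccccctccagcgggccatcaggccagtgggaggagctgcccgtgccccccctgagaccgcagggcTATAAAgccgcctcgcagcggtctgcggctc
VIM, chr10:17228121-17228240, plus strand: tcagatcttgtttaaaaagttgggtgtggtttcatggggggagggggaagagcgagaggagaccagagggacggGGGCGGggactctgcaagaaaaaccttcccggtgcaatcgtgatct
INA, chr10:103277018-103277137, plus strand: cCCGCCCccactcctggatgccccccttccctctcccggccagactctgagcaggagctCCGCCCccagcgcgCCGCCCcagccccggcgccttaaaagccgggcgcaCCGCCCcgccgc
LMNB2, chr19:2456960-2457079, minus strand: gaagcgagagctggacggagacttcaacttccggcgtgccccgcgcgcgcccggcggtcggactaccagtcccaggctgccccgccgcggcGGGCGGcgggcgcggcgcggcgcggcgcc
SYNM, chr15:99104960-99105079, plus strand: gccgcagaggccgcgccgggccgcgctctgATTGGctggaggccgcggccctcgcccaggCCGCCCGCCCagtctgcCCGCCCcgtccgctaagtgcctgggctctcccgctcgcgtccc
KRT5, chr12:52520395-52520514, minus strand: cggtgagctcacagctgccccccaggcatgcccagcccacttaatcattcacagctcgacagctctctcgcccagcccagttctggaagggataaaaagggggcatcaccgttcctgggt
KRT71, chr12:52553146-52553265, minus strand: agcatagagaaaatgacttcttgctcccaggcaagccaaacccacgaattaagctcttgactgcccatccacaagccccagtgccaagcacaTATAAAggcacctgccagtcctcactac

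Of 6 simple epithelial keratins, KRT8, KRT18 and KRT19 were read in every line. KRT8, the type II chain of simple epithelia, measured 1533, 1753 and 1770 units (log2 SD 0.12). KRT18, its type I partner, measured 2437, 3116 and 3070 (log2 SD 0.20). Both chains of the pair were lowest in H9, with a log2 difference of H9 minus BG03 of -0.19 for KRT8 and -0.36 for KRT18. BG03 minus ES01 was -0.01 for KRT8 and 0.02 for KRT18, but 0.32 and 0.35 once arrays were brought to 1 median (same-median scaling). H9 minus ES01 was -0.21 for KRT8 and -0.33 for KRT18; under same-median scaling it was 0.03 for KRT8 and -0.09 for KRT18, so KRT8 has no settled place between H9 and ES01.

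KRT19, a small type I keratin that also pairs with KRT8, had another order. It measured 2675, 2878 and 2114 units (log2 SD 0.23) and was lowest in ES01, under each scaling tried. H9 minus ES01 was 0.34 and BG03 minus ES01 was 0.45 on the log2 scale, and 0.60 and 0.76 under same-median scaling. On brightest probes, H9 minus ES01 was negative for KRT18 and positive for KRT19, the 2 type I partners of KRT8, under each scaling tried. A second KRT18 probe, for 1 transcript, was above background in all lines and gave 0.74, the same sign as KRT19.

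Of the remaining simple epithelial keratins, none was above background in all lines. KRT7, a type II keratin of ducts and trophoblast, read 13.2, 11.7 and 1.13 units and passed the threshold in H9 alone. KRT20, a keratin of gut epithelium, read 12.8, 9.37 and 7.53 and also passed in H9 alone. KRT23 lay between -10.7 and 0.0 units. Neither KRT7 nor KRT20 exceeded its H9 threshold by more than 2 units, and with the 99th percentile of the receptor probes neither was above background in any line.

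Keratins of stratified epithelia were near 0 with KRT10 as the exception. Of 19 such genes, KRT10 was above background in all lines, KRT14 in H9 alone and 17 in none. KRT10, a type I chain of the upper layers of the epidermis, measured 460, 616 and 513 units (log2 SD 0.21). BG03 was highest, with a log2 difference of H9 minus BG03 of -0.42 and of BG03 minus ES01 of 0.26, the second being 0.62 under same-median scaling. A second probe annotated to KRT10 read -5.63, -0.50 and 0.40 units and was not above background in any line, so the 2 probes disagree on whether the gene is read. KRT10's usual partner KRT1 measured 10.3, 6.17 and 9.47 units and was not above background in any line.

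KRT14, the type I chain of basal epidermis, read 12.97 in H9, -7.80 in BG03 and 6.37 in ES01. Its partner KRT5 read -0.77, 0.0 and -5.13. The remaining stratified keratins above background in no line were KRT2, KRT3, KRT4, KRT6C, KRT9, KRT12, KRT13, KRT15, KRT16, KRT24, KRT76, KRT77, KRT78, KRT79 and KRT80. All 17 lay between -12.5 and 10.8 units.

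Keratins of the hair follicle and hair shaft were not read in any line, apart from KRT85. All 9 hair follicle sheath keratins, KRT25 to KRT28 and KRT71 to KRT75, lay between -9.55 and 10.1 units. Of 13 hair shaft keratins, 12 were above background in no line: KRT31, KRT32, KRT33A, KRT33B, KRT34 to KRT38, KRT40, KRT83 and KRT84. KRT85, a type II chain of the hair shaft, read 10.5, 16.6 and 18.6 units, passing the threshold in BG03 and in ES01. KRT222, a keratin-like gene with no tissue class assigned, lay between -2.40 and 3.23 units.

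Readings over the threshold also occurred among the receptor probes that set it. Among the 44 keratins not above background in all lines, 4 (9.09%) passed in 1 or 2 lines. Among the 215 receptor probes, 11 (5.12%) did, and 6 passed in all 3 lines. How many receptor probes pass on each array is fixed by construction, because they set the threshold. The 215 include the probes above background in all lines, while the 44 leave such keratins out. The shares are therefore not like for like, and no excess of keratins over receptor probes can be read from them. The 4 keratins were KRT7, KRT14, KRT20 and KRT85, and with the 99th percentile as threshold none of them passed in any line. KRT8, KRT18, KRT19 and KRT10 were above background in all 3 lines with that threshold as well.

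**Figure D2:**
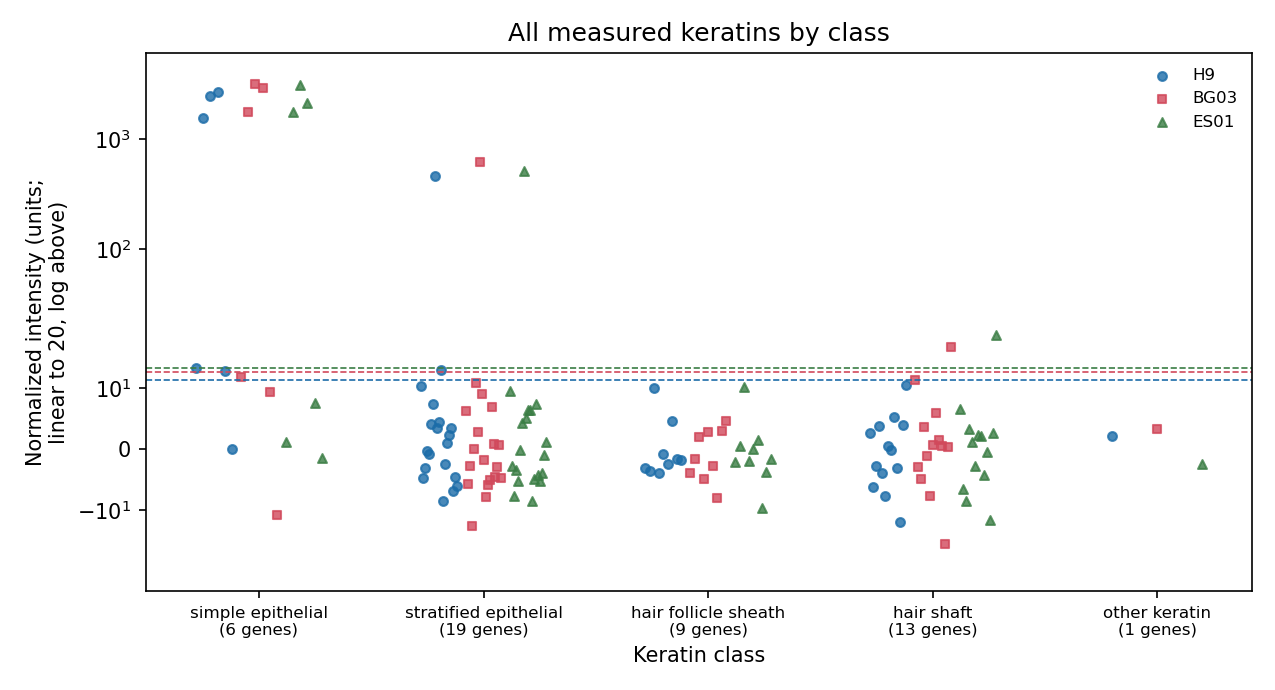
Normalized intensity (units, linear to 20 and logarithmic above) of all 48 measured keratins by class; each marker is 1 gene in 1 line, and dashed lines are the background thresholds. The 3 simple epithelial genes (KRT8, KRT18, KRT19) and 1 stratified gene (KRT10) stand far above the thresholds in each line, and the others gather around 0.

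By position, the keratins read in every line lay in both keratin gene clusters. In RefSeq's GRCh38.p14 gene order, the chromosome 12 cluster holds 27 keratin genes, of which 22 were measured and 2 were above background in all lines. These 2, KRT8 and KRT18, are neighbours, and KRT18 is the type I gene that lies among type II genes. The chromosome 17 cluster holds 28, of which 26 were measured; KRT10 and KRT19 were above background there and are not neighbours.

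Among type III genes, VIM and PRPH were read in every line and DES and GFAP in none. VIM, the filament of mesenchymal and many embryonic cells, measured 2346, 1476 and 2104 units (log2 SD 0.35). BG03 was lowest under each scaling tried, with a log2 difference of H9 minus BG03 of 0.67 and of BG03 minus ES01 of -0.51, the second being -0.17 under same-median scaling. PRPH, a filament of peripheral neurons, measured 52.7, 37.9 and 37.6 units (log2 SD 0.28) and was highest in H9 under each scaling. DES, the muscle filament, lay between 2.17 and 7.0 units, and GFAP, the astrocyte filament, between 1.23 and 4.23.

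The MEF feeders also make vimentin, but they are mouse cells, and their RNA would have to bind human probes to reach the VIM reading. Whether it did was not tested. The fibroblast markers are read by human probes too, and do not separate feeder RNA from that of human cells. Of 11 fibroblast markers, COL1A1, COL1A2, THY1 and PDGFRB passed the threshold in every line, against 59.8% of all genes. Another 5 passed in part of the lines, and COL3A1 and POSTN in none. The summed levels of the 11 were 1215, 1230 and 1584 units in H9, BG03 and ES01, of which THY1 gave 752, 851 and 824. COL1A2 (310, 229 and 582), DCN (30.5, -0.60 and 26.4) and LOX (22.4, 9.17 and 28.0) were lowest in BG03, as VIM was. DCN and LOX were not above background in BG03. LUM (10.1, 48.9 and 10.1) and THY1 were highest in BG03. COL1A1 (18.6, 22.0 and 43.2), PDGFRB (25.7, 35.5 and 50.03) and THY1 were lowest in H9. PDGFRA (24.7, 16.9 and 6.37) was lowest in ES01, where it was not above background. FAP (13.7, 11.3 and 9.90) passed the threshold in H9 alone. The part of fibroblast RNA in the VIM difference was not tested.

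All but 1 of the type IV genes were read in every line. INA, the internexin of early neurons, measured 396, 266 and 338 units (log2 SD 0.29) and was highest in H9 under each scaling tried. NEFH, the heavy neurofilament chain, measured 164, 96.2 and 160 units (log2 SD 0.44), and BG03 was lowest under each scaling tried. H9 minus BG03 was 0.77, BG03 minus ES01 -0.74 and H9 minus ES01 0.04. Under same-median scaling BG03 minus ES01 was -0.39 and H9 minus ES01 0.36. NEFM, the medium chain, measured 92.6, 101 and 117 units (log2 SD 0.17) and followed another order, with H9 lowest; scaled to the same median its difference of H9 minus ES01 of -0.33 became 0.01. NEFL, the light chain on which neurofilaments are built, read 12.7, 5.23 and 2.37 units and passed the threshold in H9 alone.

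NES, the nestin of neural progenitors, measured 70.9, 99.2 and 107 units (log2 SD 0.32). H9 was lowest under each scaling, at -0.48 against BG03 and -0.60 against ES01 on the log2 scale, the second being -0.26 under same-median scaling. SYNM, synemin, a large chain that joins vimentin or desmin filaments to the cell cortex, measured 75.9, 40.7 and 35.9 units (log2 SD 0.58). H9 stood above BG03 by 0.90 and above ES01 by 1.08 on the log2 scale, the widest spread of the 14 genes.

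SYNM was the 1 member that differed at least 2-fold between lines, 2.11-fold between H9 and ES01. That is 1 of the 19 members above background in at least 1 line, against 8.29% of all such genes; by pair, the share of all genes was 3.24% for H9 against BG03, 5.14% for H9 against ES01 and 3.75% for BG03 against ES01. Its second probe, which reads 1 transcript, measured 3.40, 7.70 and 10.9 units and was not above background in any line. With the mean of its probes and with a floor of 50 units, no member reached 2-fold. That floor lies above SYNM's values in BG03 and ES01, so it narrows the difference by construction. Without H9 or without ES01 no member reached 2-fold either, which had to follow because the only 2-fold pair was then gone.

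Markers of neural cells were read in part. Of 8 measured markers of neurons and neural progenitors, 2 passed the threshold in every line, against 59.8% of all genes. These were TUBB3 (1348, 1269 and 1575 units) and DCX (34.4, 76.3 and 55.4). Another 3 passed in part of the lines, and SOX1, MAP2 and NEUROG2 in none. The summed levels of the 8 were 1417, 1392 and 1691 units in H9, BG03 and ES01, of which TUBB3 gave most. DCX, lowest in H9 and highest in BG03, did not follow that sum. Of 4 astrocyte markers, AQP4 and SLC1A3 were above background in all lines and S100B and ALDH1L1 in none. The summed levels of the 4 were 183, 219 and 111 units, of which SLC1A3 gave 160, 191 and 93.8. The part of neurons, neural progenitors and astrocytes in the differences of NEFH, NES and SYNM was not tested.

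The 3 lamin genes were read in every line, and LMNA differed most between lines. LMNB1, a B-type lamin found in nearly all cells, measured 458, 434 and 415 units (log2 SD 0.07), the smallest spread of the 14 genes. LMNB2, the second B-type lamin, measured 2143, 2074 and 1726 (log2 SD 0.17) and was lowest in ES01 under each scaling. LMNA, which encodes the A-type lamins of differentiated and stiff tissues, measured 117, 183 and 191 units (log2 SD 0.39) on a probe for 1 transcript. H9 was lowest under each scaling, at -0.64 against BG03 and -0.71 against ES01 on the log2 scale, the second being -0.38 under same-median scaling.

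A second LMNA probe gave the same order for H9. The probe designed on all transcripts read 71.5, 104 and 141 units, with H9 at -0.53 against BG03 and -0.98 against ES01. The 2 LMNA probes differed on BG03 minus ES01, which was -0.45 on this probe and -0.06 on the brighter one. For KRT18 the probes disagreed: the probe for 1 transcript read 57.9, 51.1 and 34.7 units, with H9 highest, while the probe for all transcripts had H9 lowest. Processed pseudogenes of KRT8 and KRT18 are numerous in the human genome, and whether these probes read them was not tested.

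**Figure D3:**
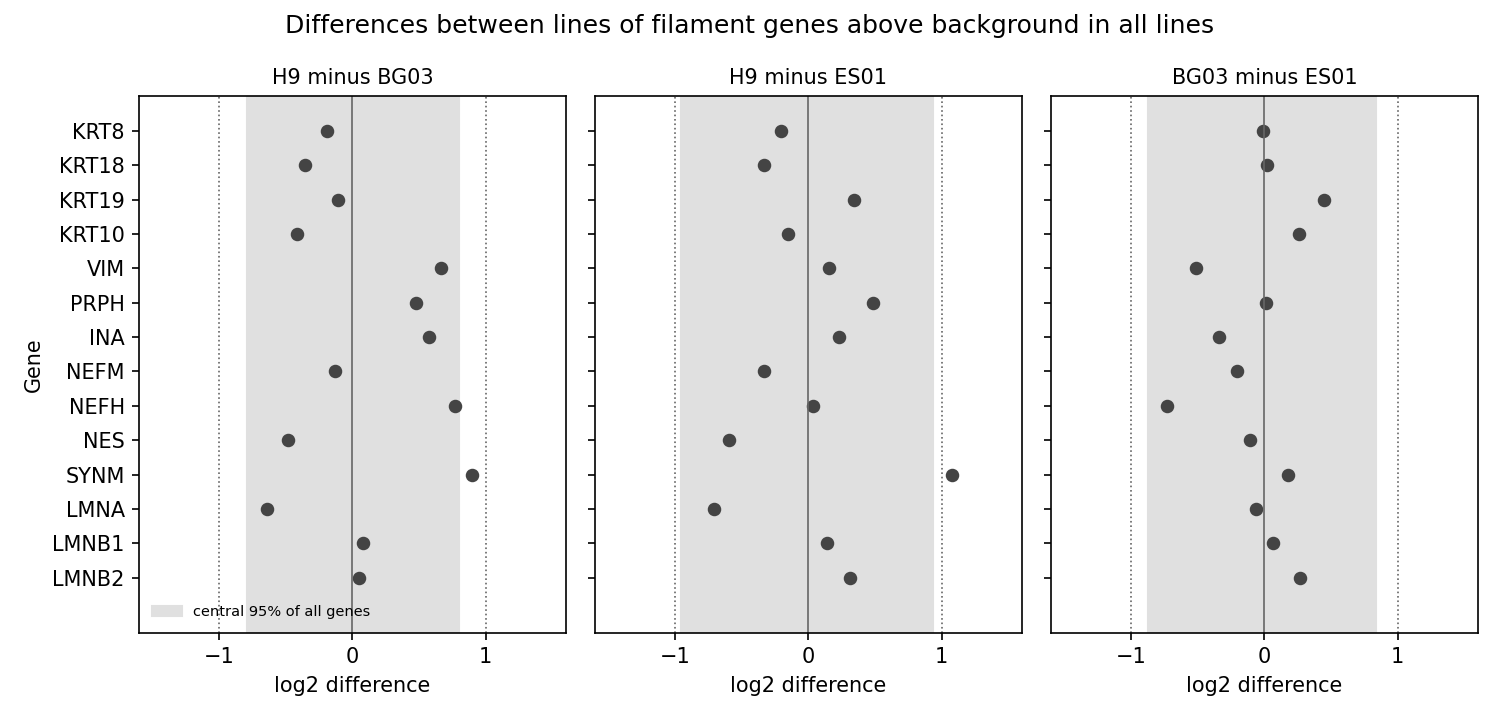
Log2 difference between lines for the 14 filament genes above background in all lines, 1 panel per pair of lines; the grey band holds the central 95% of all 9695 genes above background in all lines, and dotted lines mark 2-fold. Only SYNM lies outside the band, in both panels with H9; VIM, INA, NEFH and PRPH lie right of 0 and LMNA and NES left of 0 in the panel of H9 minus BG03.

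The spread of the 14 genes was set beside that of all genes as a description. Their median log2 SD was 0.26 (lowest 0.07, highest 0.58), against 0.18 for all 9695 genes above background in all lines. The median absolute log2 difference of H9 and BG03 was 0.45, against 0.19 for all genes. For H9 and ES01 it was 0.32, against 0.23, and for BG03 and ES01 0.19, against 0.21. Members differed most where H9 was in the pair, and in no common direction. The median signed differences were -0.03, 0.09 and -0.00, against -0.02, 0.00 and 0.02. H9 was lowest for 6 of the 14 (KRT8, KRT10, KRT18, LMNA, NEFM and NES), against 35.3% of all genes, and highest for 7 (INA, LMNB1, LMNB2, NEFH, PRPH, SYNM and VIM), against 32.7%. BG03 was lowest for 3 (27%) and highest for 3 (32.7%), and ES01 lowest for 5 (37.7%) and highest for 4 (34.5%), with the share of all genes in brackets. Same-median scaling, which moves the median of all genes to 0.29 for H9 minus ES01 and 0.37 for BG03 minus ES01, put KRT8, KRT10, NEFM and INA lowest in ES01 instead. In the values as deposited and under same-median scaling, BG03 was highest for LMNB1 and LMNB2. Same-median scaling also put KRT8, LMNA, NEFM and NES highest in BG03. These are the genes counted above as highest in ES01, so none of the 14 stayed highest there.

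No filament gene was shown to vary more between lines than genes of like intensity. In an F-test of each gene's variance against limma's prior variance, 0 of 19 members passed an adjusted p of 0.05, and 0 of 11004 genes did (0%). At an unadjusted p under 0.05 there was 1 member, VIM (adjusted p = 0.978), and 516 genes (4.69%); the robust fit gave 0 members and 507 genes. In a simulation that used these arrays' fitted spread, 0 of 200 genes changed 4-fold and 0 of 200 changed 16-fold among 11004 were recovered. With an even spread for all genes, 133 and 197 of 200 were. At the fitted spread, then, a count of 0 does not show that the lines were alike.

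In their promoters, the filament genes read in every line were of more than 1 kind. RefSeq's table held 47 promoters for 40 of the 61 genes. Among the genes read in every line, KRT18, KRT19, NEFM and NEFH had none, so the read keratins are represented by KRT8 and KRT10 only. The ratio of observed to expected CpG was taken in the 250 bases before the start. Its median was 0.71 over the 11 promoters of 8 non-keratin genes above background in all lines. The 31 promoters of 28 keratins above background in no line had a median of 0.16, against 0.56 for all 35116 promoters. LMNA, LMNB1 and KRT40 have several promoters each, so these are counts of promoters and not of genes. KRT8 (0.07) and KRT10 (0.00) lay within the range of the keratins that were not read, 0.00 to 0.46.

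Of the motifs marked above, a GC box on either strand was in 9 of the 11 promoters of 8 non-keratin genes read in every line. INA, LMNB2, SYNM and VIM were among them. A GC box was in neither of the 2 promoters (KRT8 and KRT10) of keratins read in every line. It was in 4 of the 31 promoters of 28 unread keratins, against 42.6% of all promoters. TATAAA stood in the window of 40 to 20 bases before the start in KRT10 and PRPH and in 15 of the 31 promoters of unread keratins, KRT71 among them, against 2.26% of all promoters. CCAAT on either strand was in 4 of the 13 promoters of members read in every line (30.8%) and 11 of the 31 of unread ones (35.5%), near the 32% of all promoters. A match is a run of letters at an annotated start, which need not be the start used in these cells.

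**Figure D4:**
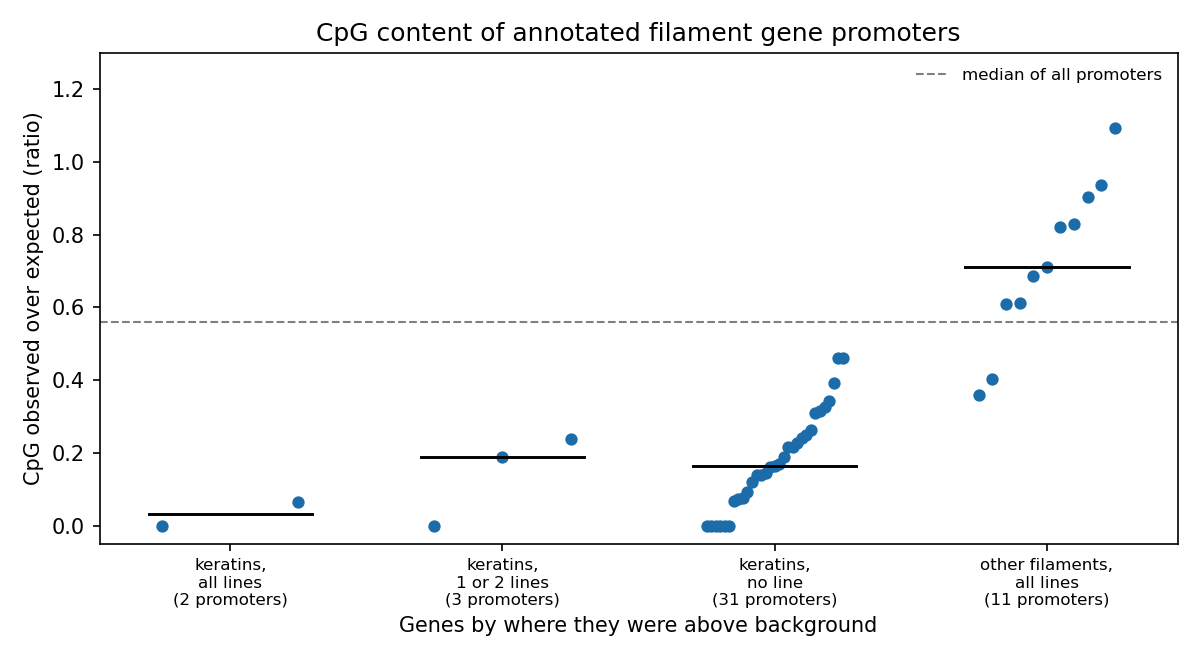
Ratio of observed to expected CpG in the 250 bases before each annotated start of the filament genes, grouped by family and by the lines in which the gene was above background; each point is 1 promoter, black bars are medians and the dashed line is the median of all promoters, 0.56. Points of keratins lie low in each group, and the 11 promoters of other filaments read in every line lie between 0.36 and 1.09.

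Genes that hold, anchor or process the filaments were mostly read in every line. Of 13 measured plakins and linkers, which tie filaments to junctions and to each other, 11 passed the threshold in every line, against 59.8% of all genes. PLEC (plectin) measured 365, 413 and 424 units, DST (dystonin) 49.6, 93.6 and 75.5, and MACF1 1151, 1294 and 1180. DSP (desmoplakin), which anchors keratins at desmosomes, read 10.3, 8.63 and 11.3 units and was not above background in any line, nor was PKP1. None of the 13 differed at least 2-fold, against 8.29% of genes above background in at least 1 line.

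Partners of the lamins were read in every line with 2 exceptions. Of 18 lamina partners and processing enzymes, 16 were above background in all lines and SUN2 and SYNE1 in none, and 0 differed at least 2-fold. LBR, the lamin B receptor, measured 2374, 2306 and 2505 units, EMD (emerin) 1553, 1681 and 1462, TMPO 271, 324 and 285, and BANF1 588, 523 and 503. ZMPSTE24, the protease that matures prelamin A, measured 1366, 1450 and 2008. The 3 other filament genes measured, BFSP1 (27.7, 47.9 and 31.2), BFSP2 (13.7, 14.6 and 18.7) and SYNC (21.0, 22.5 and 22.0), were above background in all lines.

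Epithelial regulators were read in part. Of 16 measured, 9 passed the threshold in every line, against 59.8% of all genes, while 2 did so in part of the lines and 5 in none. CDH1 (E-cadherin) measured 1892, 1764 and 1917 units, EPCAM 3027, 2439 and 3752, and the splicing regulators ESRP1 and ESRP2 1698, 1710 and 1757 and 1170, 1227 and 1265. Of the 11 regulators above background in at least 1 line, 4 differed at least 2-fold, against 8.29% of all such genes: GRHL2 (1.83, 32.3 and 10.6), GRHL3 (9.97, 19.8 and 47.0), KLF5 (27.0, 23.6 and 76.7) and ELF3 (12.3, 32.6 and 39.5). GRHL2 passed the threshold in BG03 alone and GRHL3 in BG03 and ES01, and ELF3 was just over it in H9. With the 99th percentile as threshold, KLF5 was the 1 regulator of these 4 that still differed at least 2-fold.

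Of the mesenchymal regulators, which act in cells that carry VIM, a part was read. Of 11 measured, TWIST2, CDH2, FN1 and S100A4 passed the threshold in every line, 2 in part of the lines and 5 in none. The share of all genes passing in every line was 59.8%. The repressors of epithelial genes ZEB1, SNAI1 and SNAI2 lay between -6.33 and 9.07 units, and ZEB2 read 14.8, 9.93 and 16.8. TWIST1 was the 1 gene of the list that differed at least 2-fold (9.67, 24.5 and 45.4 units), and it did not do so with the 99th percentile as threshold. CDH2 (N-cadherin) measured 3043, 2769 and 3571.

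Genes of the epidermal and hair programmes were near 0 with few exceptions. Of 13 cornified envelope genes, CNFN (147, 119 and 115 units) passed the threshold in every line, IVL and SPRR1B in part of the lines and 10 in none, among them FLG, LORICRIN and TGM1. Of 50 keratin-associated proteins of hair, KRTAP11-1 (79.2, 75.2 and 64.9 units) was above background in all lines and KRTAP19-2 in BG03 alone. The first 4 of that list, KRTAP1-1, KRTAP1-3, KRTAP1-5 and KRTAP10-10, lay between -5.13 and 6.37 units. The share of all genes above background in all lines was 59.8%. No gene of either list differed at least 2-fold. The defining markers of epidermis DSG3, DSC3 and LORICRIN did not pass in any line, and IVL read 13.6, 18.3 and 8.77.

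Trophoblast carries KRT7, KRT8, KRT18 and KRT19 too, and its markers were mostly not read. Of 10 measured, GATA3 (51.8, 32.9 and 62.3 units) and HAND1 (17.7, 34.7 and 15.7) were above background in all lines, and CDX2, GATA2, ELF5, GCM1, CGA, CGB3, HSD3B1 and CYP19A1 in none. The share of all genes above background in all lines was 59.8%. The summed levels of the trophoblast list were 82.4, 97.8 and 87.9 units in H9, BG03 and ES01. Of 5 muscle markers, ACTC1 (1739, 1541 and 3336) was above background in all lines and MYH3 in 2 of them, while DES was in none.

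Proteins that bind filaments or turn them over were read in every line for 7 of 10 genes, near the 59.8% of all genes. The chaperone DNAJB6, which binds KRT18, measured 2620, 2276 and 1967 units, and STUB1 335, 329 and 342. The small heat shock proteins HSPB1 and HSPB8 measured 343, 300.3 and 259 and 62.2, 79.6 and 53.6. CRYAB, a small heat shock protein that binds desmin and vimentin, was the 1 gene of the list that differed at least 2-fold: it read 23.5 units in H9, 8.43 in BG03, not above background, and 97.2 in ES01, at least 7.73-fold lower in BG03 than in ES01 at this threshold. It still differed at least 2-fold with the 99th percentile as threshold. In all, 6 of 134 partner genes differed at least 2-fold, of 62 above background in at least 1 line, against 8.29% of all genes; without ES01 there were 3.

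**Figure D5:**
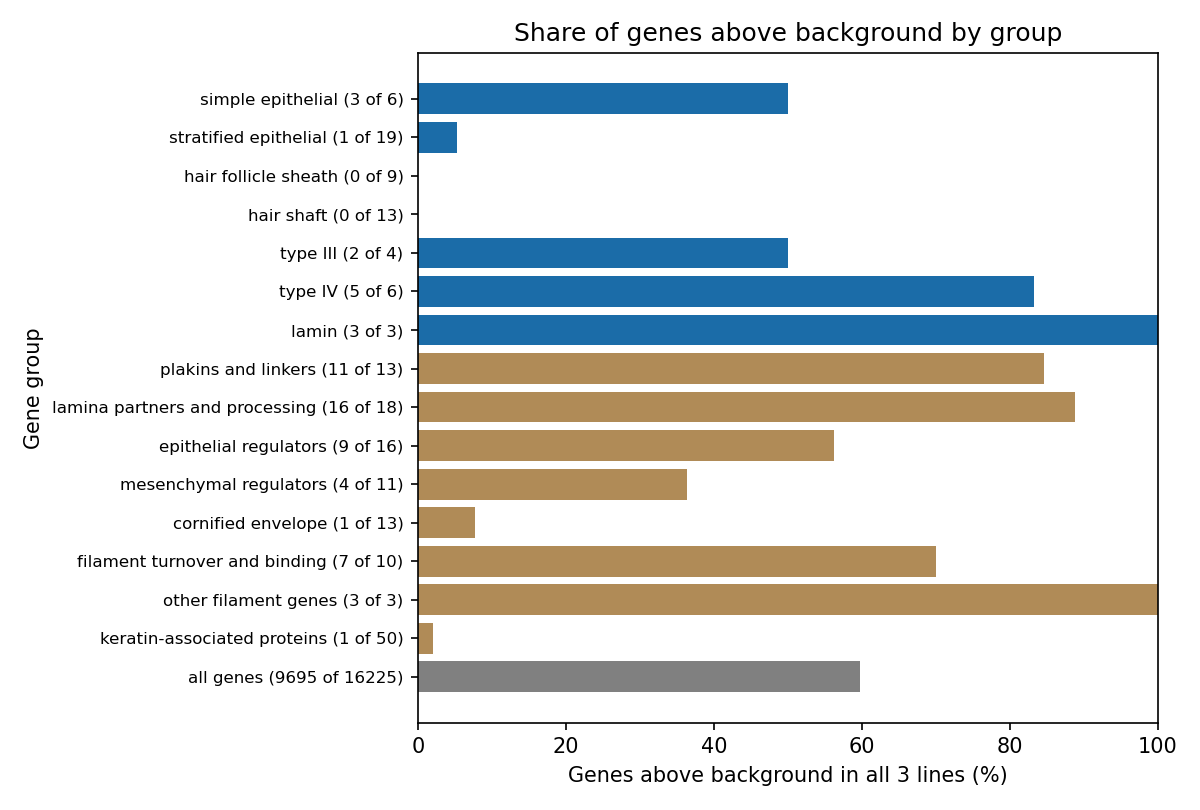
Share of genes (%) above background in all 3 lines, for the classes of filament genes (blue), the partner lists (brown) and all genes (grey); counts stand beside each name. Lamins, type IV genes, plakins and lamina partners lie above the 59.8% of all genes, and stratified and hair keratins, cornified envelope genes and keratin-associated proteins below it.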

How the data were processed

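Gene values came from the authors' deposited values, which give an intensity for each probe and array. They are on a linear scale with 26.3% to 33.8% of values below 0, so background had been subtracted. Which software made them, and whether arrays were scaled, is not given in these sources. The deposited bead files hold 1 green intensity per bead and served for bead error only, over beads above 0 within 3 scaled median absolute deviations of their type's median. Genes were named through GEO's platform annotation (18468 of 47293 probes, symbols updated by gene ID for 18451 from RefSeq, GRCh38.p14).

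Quantile normalization over all probes but 4 bacterial controls was done in R 4.3.3 (limma 3.58.1, data.table version 1.17.8). The brightest probe by mean stood for a gene with several. Values under an array's threshold were set to it before log2 was taken, and differences were taken for genes above background in at least 1 line. limma's variance test used squeezed variances with an intensity trend and Benjamini-Hochberg adjustment over all 11004 such genes, and was tested on simulated data. Shares, promoters and figures used Python 3.11.15, numpy 2.4.6, pandas 2.3.3 and matplotlib 3.10.9.

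The members and lists were chosen with earlier results of these data known. Every member was named; of each partner list, the first 4 measured genes and every gene at least 2-fold apart were named, and genes outside this rule, ZMPSTE24 among them, were named after their values had been seen. Alternatives changed the normalization, threshold, background set, probe rule, floor, filter, fold and prior, and left out each line.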

Additional observations from a re-analysis of the deposited data

How the results depend on the processing

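The 14 members above background in all lines were 14 in the values as deposited, with same-median scaling, with the 99th percentile, with the second background set of 41 probes and with the mean of a gene's probes, and 17 with the noise below 0 as background; without 1 line they were 14 to 15. The count of members at least 2-fold apart, 1 (SYNM), was 4 with the noise below 0 as background (KRT7, KRT14, NEFL and SYNM), 0 with the mean of a gene's probes, 0 with a floor of 50 units and 6 with a threshold of 1.5-fold (KRT85, LMNA, NEFH, NES, SYNM and VIM). Without 1 line it was 0 to 1, and it was 0 without H9 and 0 without ES01. Those 2 zeros had to follow, because H9 against ES01 was the only pair in which SYNM was 2-fold apart. The 6 partner genes at least 2-fold apart were 2 with the 99th percentile, 11 with the noise below 0, 0 with a floor of 50 units, 2 among genes above background in all lines and 19 at 1.5-fold, and 3 to 5 without 1 line. A lower threshold or fold admits more genes by construction, and a higher floor or stricter filter fewer. The variance test called 0 members under each of its 7 alternatives, and same-median scaling gave 88 genes in place of 0. Of 513 recomputed differences of single members, 309 equalled the reported value, many because the setting could not touch them, and 50 changed sign. Of these, 13 belonged to 9 of the 14 members above background in all lines, all under another scaling. The other 37 belonged to KRT7, KRT14, KRT20, KRT85 and NEFL. For KRT85, H9 minus ES01 was -0.73 and became 0.23 with the 99th percentile. KRT85 then passed in no line, so 0.23 is only the log2 ratio of the H9 and ES01 thresholds (25.2 and 21.4 units). KRT7, KRT14, KRT20 and NEFL gave the same 0.23, and it is not a difference of these genes. No paired analysis was possible because the 3 lines form 1 group. Depth beyond 1 array per line is lacking, so readings within a few units of the threshold carry no order.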
